A study of Mus musculus with 48 samples.

Results

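Pdgfra, Cspg4, Lhfpl3, Olig1, Olig2, Sox10, Nkx2-2 and Myrf are genes by which oligodendrocyte precursors and the cells they give rise to are recognised. They were taken by symbol and make up 8 of the 48526 genes counted in mouse cortex. In the input RNA of total homogenate (TH), 7 of the 8 genes were lower at 5 months than at 3 weeks. Over all genes tested there, 7.05% were lower. Of these 7, 5 genes, all coding for transcription factors, were higher again at 18 months, against 8.18% of all genes. With all 48 libraries in 1 fit, the counts of 7 and 5 became 4 and 2, and fewer of all genes passed as well. In the ribosome pellet of TH, 3 of the 8 genes were lower at 5 months, against 8.46% of all genes. There 1 gene, Olig2, was higher again at 18 months, against 0.377% of all genes. The 3 genes coding for membrane proteins, Pdgfra, Cspg4 and Lhfpl3, did not pass the test between 5 and 18 months. In synaptosomes (SYN), Pdgfra, Cspg4 and Lhfpl3 stood 1.80- to 3.33-fold above TH in the input and in the ribosome pellet at every age, whereas Sox10 stood at 0.523 to 0.799 of its TH level. Sox10 in the input at 5 months did not pass the test (edgeR adjusted p = 0.0552). With libraries scaled by their size alone, Lhfpl3 in the pellet at 5 months did not pass.

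The cortex came from 12 wild-type male C57BL/6JRj mice without a transgene or treatment, 4 at 3 weeks (3w), 4 at 5 months (5m) and 4 at 18 months (18m). The sample characteristics give the middle age as 6 months, while the protocol and the study's methods give 5 months, the name used here. Each mouse gave 4 libraries, from TH and from SYN, which is the material collected at the sucrose interface where nerve endings band. From each compartment, RNA was taken before (input) and from the pellet under a sucrose cushion (SC), which holds ribosomes and the RNA bound to them. The 48 libraries held 1780267 to 18590040 counts, with a median of 3756951 in input_SYN, 7298371 in SC_SYN, 8643431 in SC_TH and 10815833.5 in input_TH. Slc17a7, the vesicular glutamate transporter of cortical neurons, was at 1041 ± 69.2 CPM in input_TH at 3w and marks the tissue. In SC_TH the median depth was 4448523 counts at 3w and 12328632 at 18m. Among the 4 mice of a group, the variance between 2 libraries was 1.89 to 29.5 times that of counting error, over 72 pairs of libraries. Levels are in CPM, each count divided by the library total, scaled by TMM factors over the 48 libraries and are given as mean ± SD of 4 mice. Differences are log2 fold changes from edgeR's quasi-likelihood test, with p-values adjusted over all genes tested. The standard error (SE) of a change was derived from the change and the F statistic of that test. The 95% intervals take a normal multiple of the SE, which makes them somewhat narrow. A gene is said to rise or fall where the adjusted p is under 0.05. Since the RNA is from whole tissue, fewer cells of a type and less RNA per cell cannot be told apart.

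Oligodendrocyte precursors are dividing glial cells that remain spread through the adult cortex and turn into the oligodendrocytes that wrap axons in myelin. PDGF-A, acting on the receptor that Pdgfra encodes, keeps them dividing. OLIG2, helped by OLIG1, sets the lineage apart, SOX10 is present from the precursor to the myelinating cell, NKX2-2 acts around the onset of differentiation, and MYRF then switches on the genes of myelin. Precursors also receive synapses from neurons, and their fine processes lie in the neuropil. Pdgfra is in addition a gene of fibroblasts, and Cspg4 one of pericytes.

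The 8 genes are on 6 chromosomes (mouse genome GRCm38). Olig1 (ENSMUSG00000046160, chr16:91269772-91271933) and Olig2 (ENSMUSG00000039830, chr16:91225457-91228677) are neighbours on the same strand. Pdgfra (ENSMUSG00000029231, chr5:75152292-75198215) and Lhfpl3 (ENSMUSG00000106379, chr5:22746059-23275597) are both on chromosome 5. Cspg4 (ENSMUSG00000032911) is at chr9:56865033-56899870, Sox10 (ENSMUSG00000033006) at chr15:79154908-79165240, Nkx2-2 (ENSMUSG00000027434) at chr2:147177546-147194243 and Myrf (ENSMUSG00000036098) at chr19:10208272-10240748. Reads were counted without regard to strand. Antisense genes overlap 9.7% of the exonic bases of Nkx2-2, and other transcripts overlap 17.6% of those of Lhfpl3. For Olig1 the share is 7.3% and for Pdgfra 6.5%. How reads in shared bases were assigned is not given in the sources used here, so the values may be too high or too low. Nkx2-2 was also the least covered, with 2 to 78 counts per library.

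Of the 8 genes, 5 matched an entry of the promoter table (RefSeq, GRCm38.p6), the others being Olig1, Sox10 and Myrf. Bases ahead of any annotated exon were found for 3 of the 5, Pdgfra, Cspg4 and Olig2, which are among the genes that fell in input_TH between 3w and 5m, and these bases are shown. They are on the plus strand, 5′ to 3′, and end before the first annotated exonic base. Capitals mark an E-box (CANNTG, the motif class of basic helix-loop-helix proteins such as OLIG1 and OLIG2) or the core ACAAT bound by SOX proteins, searched on both strands.
Pdgfra, chr5:75152001-75152250: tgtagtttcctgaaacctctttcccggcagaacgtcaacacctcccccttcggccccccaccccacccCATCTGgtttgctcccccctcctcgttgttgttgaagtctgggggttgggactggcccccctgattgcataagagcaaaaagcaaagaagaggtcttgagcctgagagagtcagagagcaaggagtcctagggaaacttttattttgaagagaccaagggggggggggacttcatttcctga
Cspg4, chr9:56864854-56865032: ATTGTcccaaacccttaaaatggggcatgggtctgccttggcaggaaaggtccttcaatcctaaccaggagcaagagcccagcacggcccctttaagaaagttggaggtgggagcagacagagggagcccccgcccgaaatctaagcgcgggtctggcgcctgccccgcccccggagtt
Olig2, chr16:91225300-91225456: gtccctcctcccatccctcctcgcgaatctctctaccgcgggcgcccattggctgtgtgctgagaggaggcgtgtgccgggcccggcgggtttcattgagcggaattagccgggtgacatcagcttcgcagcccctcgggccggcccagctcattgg
The 250 bases of Pdgfra hold 1 E-box and no ACAAT, and 66.2% of 32851 mouse promoters hold an E-box in the same window. The 179 bases of Cspg4 hold no E-box and 1 ACAAT, on the reverse strand, as 21.5% of promoters do in that window. Neither motif is in the 157 bases of Olig2, where 50.8% and 19.3% of promoters hold them. A match describes the letters and does not show a bound site.

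Per kilobase of exon, Olig1, whose single exon spans 2.16 kb, had the highest level of the 8 genes in every fraction and age. In input_TH it was at 67.5 CPM per kb at 3w, 34.9 at 5m and 53.1 at 18m. Sox10 followed in input_TH with 14.7, 8.74 and 13.1 CPM per kb. Nkx2-2 was the lowest, with 1.14, 0.709 and 1.12 CPM per kb at the 3 ages. In SC_SYN, the order below Olig1 was another. Pdgfra came second at each age, with 16.7 CPM per kb at 3w, 11.01 at 5m and 11.5 at 18m, and its range overlapped that of the next gene at all 3 ages. From the second to the seventh place in SC_SYN, each gene overlapped its neighbour.

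**Figure D1:**
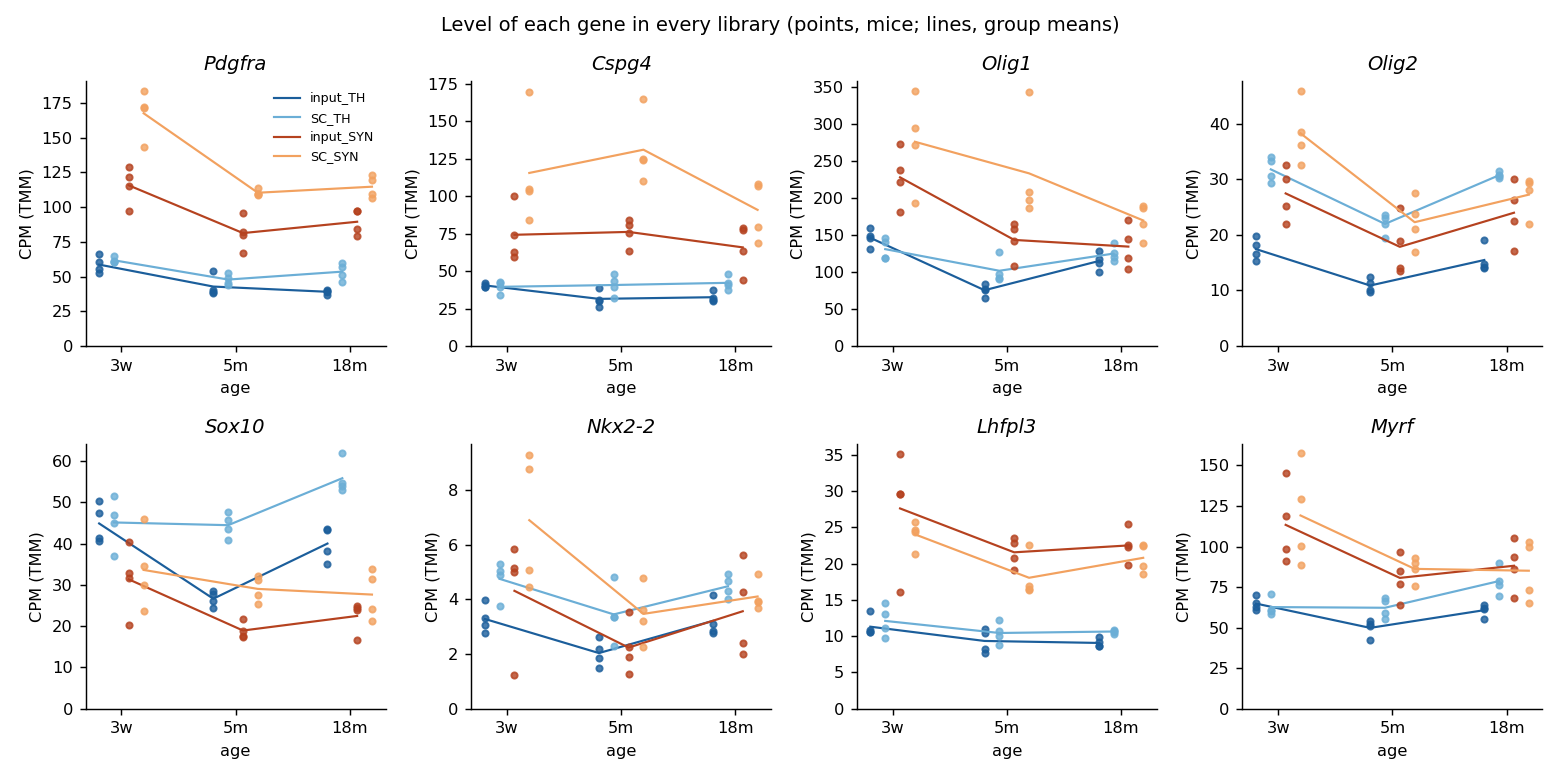
Level of each of the 8 genes (CPM with TMM factors, linear axis from 0) in the 4 fractions at 3w, 5m and 18m, each point 1 mouse and the lines joining the means of 4 mice. At each age, the points for Pdgfra, Cspg4 and Lhfpl3 lie higher in SC_SYN than in SC_TH, and those for Sox10 lie lower in input_SYN than in input_TH.

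Among the genes for membrane proteins, Pdgfra, the receptor that drives precursor division, was at 52.3, 55.6, 60.6 and 66.2 CPM in input_TH of the 4 mice at 3w. At 5m it was at 38.1, 38.9, 40.7 and 53.8 CPM, and at 18m at 37.1, 39.3, 39.5 and 40.5 CPM. The 18m mice all lay below the 3w mice, and the groups at 3w and 5m overlapped through a single 5m mouse, number 191, with 53.8 CPM. Pdgfra fell by 0.46 between 3w and 5m (SE 0.10, adjusted p = 0.00676). The same input_TH library of mouse 191 stood apart in 6 fibroblast genes, whose summed level was 306.4 CPM there and 47.3 to 64.8 CPM in the other 3 mice at 5m. Without that mouse, the change of Pdgfra was -0.60 (adjusted p = 1.59e-05). It was -0.10 from 5m to 18m (95% interval -0.31 to 0.10, adjusted p = 0.533).

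Cspg4, the gene of the NG2 proteoglycan on the surface of precursors and pericytes, was at 39.2, 39.5, 41.0 and 42.4 CPM at 3w in input_TH. At 5m it was at 26.3, 30.0, 31.0 and 38.8 CPM, below every 3w mouse, and it fell by 0.36 (SE 0.10, adjusted p = 0.0267). The 38.8 CPM were in the library of mouse 191, where the summed pericyte genes were at 160.0 CPM, against 113.9 to 121.7 CPM in the other 3 mice, and the endothelial genes at 315.6 CPM, against 217.8 to 223.4 CPM. Without that mouse, the change of Cspg4 was -0.49 (adjusted p = 0.000295). The part of these cells in the change was not tested. At 18m the values of 30.4, 30.7, 32.2 and 37.2 CPM overlapped those at 5m, with a change of 0.08 (95% interval -0.12 to 0.28, adjusted p = 0.632). Lhfpl3, which codes for a membrane protein of the LHFPL family and is a marker of precursors, was at 10.5, 10.5, 10.8 and 13.4 CPM at 3w. At 5m it was at 7.74, 8.20, 10.4 and 11.01 CPM and the groups overlapped, with a change of -0.28 (95% interval -0.51 to -0.05, adjusted p = 0.14). Its change between 5m and 18m was -0.01 (95% interval -0.25 to 0.22, adjusted p = 0.957).

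Of the transcription factor genes, Olig1 was at 130.3, 145.6, 148.9 and 159.2 CPM in input_TH at 3w, at 64.5, 76.1, 77.7 and 83.2 CPM at 5m, and at 99.9, 112.7, 117.5 and 128.6 CPM at 18m. The 3 ages did not overlap, with the lowest values at 5m. Olig1 fell by 0.96 between 3w and 5m (SE 0.09, adjusted p = 2.06e-06) and rose by 0.64 between 5m and 18m (SE 0.09, adjusted p = 0.00101). Olig2, its neighbour on chromosome 16, was at 15.3, 16.5, 18.2 and 19.7 CPM at 3w, at 9.72, 10.2, 11.3 and 12.4 CPM at 5m, and at 14.1, 14.1, 14.7 and 19.0 CPM at 18m. The 5m mice lay below all others, with a fall of 0.69 (SE 0.12, adjusted p = 0.000847) and a rise of 0.54 (SE 0.12, adjusted p = 0.00748).

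Sox10, which marks the lineage from precursor to myelinating cell, was at 40.6, 41.3, 47.3 and 50.3 CPM in input_TH at 3w, at 24.3, 26.1, 27.7 and 28.5 CPM at 5m, and at 35.01, 38.2, 43.4 and 43.4 CPM at 18m. Its 5m mice were again the lowest without overlap. Sox10 fell by 0.76 between 3w and 5m (SE 0.08, adjusted p = 1.67e-05) and rose by 0.62 afterwards (SE 0.09, adjusted p = 0.00101). Myrf, the regulator of myelin genes, was at 61.2, 62.5, 65.4 and 70.4 CPM at 3w, at 42.3, 50.8, 52.5 and 53.9 CPM at 5m, and at 55.4, 61.3, 62.4 and 64.1 CPM at 18m. The 5m mice did not overlap either other age, and Myrf moved least of the transcription factors, by -0.39 (SE 0.07, adjusted p = 0.00121) and then 0.32 (SE 0.07, adjusted p = 0.00714). Nkx2-2 was at 2.76, 3.07, 3.33 and 3.99 CPM at 3w, at 1.49, 1.85, 2.18 and 2.64 CPM at 5m, and at 2.77, 2.85, 3.10 and 4.15 CPM at 18m. The pattern was that of Olig2, with -0.69 (SE 0.20, adjusted p = 0.0303) and then 0.68 (SE 0.20, adjusted p = 0.0291).

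In input_TH, 7 of the 8 genes fell between 3w and 5m, where 7.05% of 18078 genes tested fell. The median change of the 8 was -0.57, against 0.01 over all genes tested. Between 5m and 18m, 5 of the 8 rose, where 8.18% of all genes rose, and their median change was 0.43 against 0.00 over all genes. Both contrasts use the same 5m mice, so that a low value at 5m enters each of them. With all 48 libraries in 1 fit, 4 of the 7 falls passed, those of Pdgfra, Olig1, Olig2 and Sox10, and not Cspg4 (adjusted p = 0.321), Nkx2-2 (0.141) or Myrf (0.14), and 2 of the 5 rises passed, those of Olig1 and Sox10. The calls at 18m were not equally firm. With trends on GC content and gene length removed, Olig1 (0.39, adjusted p = 0.00501) and Sox10 (0.37, adjusted p = 0.0176) still rose, while Olig2 (0.35, adjusted p = 0.0843), Nkx2-2 (0.55, adjusted p = 0.128) and Myrf (0.17, adjusted p = 0.176) no longer passed. The exons of the 5 genes that rose have a GC content of 55.7% to 61.8%, those of Cspg4 59.2%, of Pdgfra 48.1% and of Lhfpl3 41.5%. With library size in place of TMM, which moved the calls over all genes from 1479 higher and 1329 lower to 996 and 2063, all 5 still rose. That the transcription factor genes rose more than the genes for membrane proteins was not tested.

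**Figure D2:**
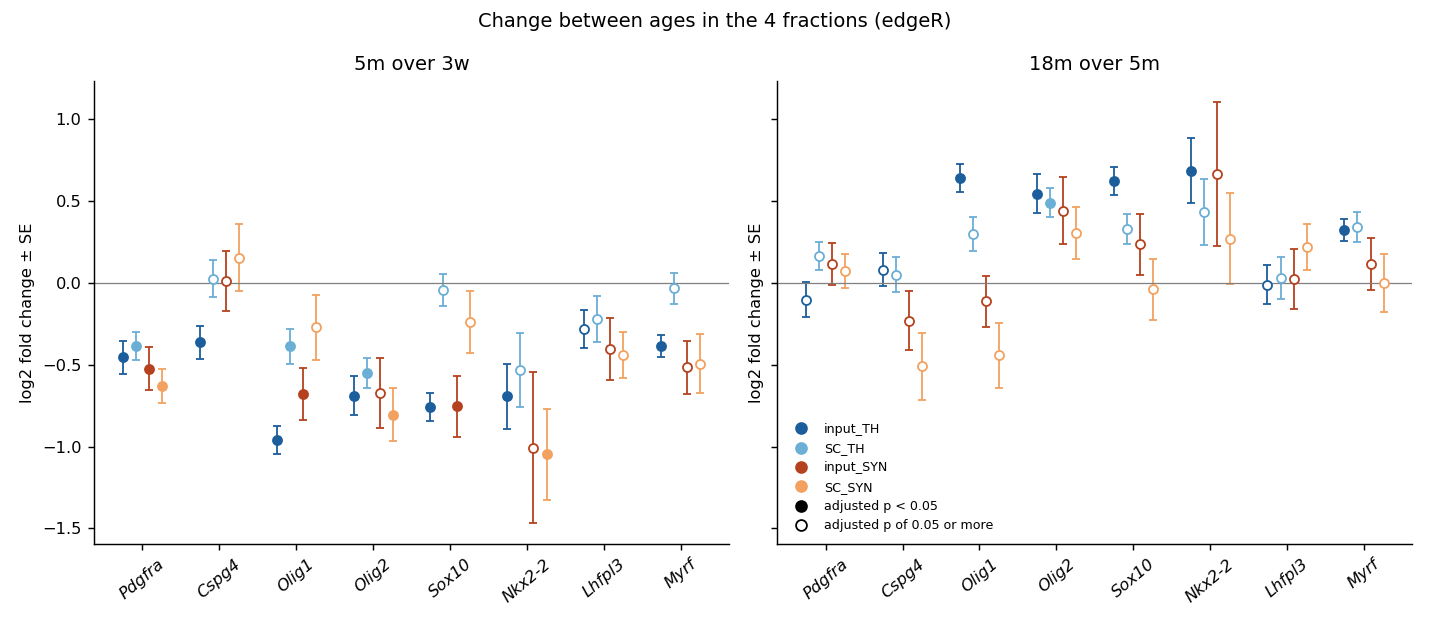
Log2 fold change of each of the 8 genes between 3w and 5m and between 5m and 18m in the 4 fractions, with the SE as error bars. Filled points have an adjusted p under 0.05. In input_TH, 7 points are filled below 0 in the first contrast and 5 above 0 in the second.

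In SC_TH, the ribosome-bound RNA of TH, Pdgfra, Olig1 and Olig2 fell between 3w and 5m, which makes 3 of 8, where 8.46% of 16427 genes fell. Olig2 was at 29.4, 30.5, 33.2 and 33.9 CPM at 3w and at 19.4, 21.9, 23.0 and 23.5 CPM at 5m, without overlap, and fell by 0.55 (SE 0.09, adjusted p = 0.000868). Pdgfra was at 60.3, 60.9, 61.0 and 64.9 CPM and then at 44.02, 45.5, 49.2 and 52.9 CPM, also without overlap, a fall of 0.39 (SE 0.09, adjusted p = 0.0071). Olig1 fell by 0.39 (SE 0.11, adjusted p = 0.0197) with groups that overlapped, and it lost the call when mouse 187, 191 or 193 was left out. Sox10 at 45.1 ± 6.14 and 44.5 ± 2.85 CPM and Myrf at 62.7 ± 5.54 and 62.3 ± 6.12 CPM differed by less than the spread between mice, with changes of -0.05 and -0.03. The pellet also held nuclear RNAs. The summed level of 6 of them had a median of 12030 CPM at 3w, 9228 CPM at 5m and 5570 CPM at 18m. In input_TH these medians were 20160, 19950 and 17770 CPM. The part of nuclear RNA in the changes of SC_TH was not tested.

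From 5m to 18m, Olig2 rose in SC_TH, to 30.2, 30.5, 30.7 and 31.4 CPM, by 0.49 (SE 0.09, adjusted p = 0.0104). It was 1 of 8, where 0.377% of all genes rose. Sox10, at 52.9 to 61.9 CPM, and Myrf, at 69.6 to 90.1 CPM, were above every 5m mouse too, with changes of 0.33 (adjusted p = 0.0689) and 0.34 (adjusted p = 0.0578) that did not pass. DESeq2 called all 3 genes. With all 48 libraries in 1 fit, none of the 8 passed in edgeR, against 1 in the fit of SC_TH alone. In the fit of SC_TH alone, 5 of the 8 and 2878 of 16427 genes had an unadjusted p under 0.05.

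In SYN, 3 of the 8 genes fell between 3w and 5m in each fraction, Pdgfra, Olig2 and Nkx2-2 in SC_SYN and Pdgfra, Olig1 and Sox10 in input_SYN. Pdgfra was at 143.5, 171.1, 172.3 and 183.5 CPM in SC_SYN at 3w and at 108.8, 109.4, 109.8 and 113.6 CPM at 5m. The groups did not overlap, and it fell by 0.63 (SE 0.10, adjusted p = 0.00254). Olig2 fell from 38.3 ± 5.61 to 22.3 ± 4.43 CPM without overlap (log2 -0.81, SE 0.16, adjusted p = 0.00834). Nkx2-2 fell from 6.90 ± 2.48 to 3.47 ± 1.05 CPM (log2 -1.05, SE 0.28, adjusted p = 0.0324), with groups that overlapped and 22 or more counts per library at 3w. These were 3 of 8 genes, where 4.02% of 14240 genes fell in SC_SYN, a share that rests on 573 lower and 573 higher calls with TMM and on 711 and 458 with library size.

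In input_SYN, Pdgfra (log2 -0.52, SE 0.13, adjusted p = 0.0339), Olig1 (-0.68, SE 0.16, adjusted p = 0.0249) and Sox10 (-0.76, SE 0.19, adjusted p = 0.0352) fell between 3w and 5m. They were 3 of 8, where 1.94% of 12975 genes fell. Olig1 went from 180.5, 220.9, 236.8 and 272.1 CPM to 107.5, 142.3, 157.6 and 165.3 CPM without overlap. Sox10 went from 31.3 ± 8.32 to 19.0 ± 2.02 CPM, with a 3w mouse at 20.3 CPM inside the 5m range. These calls rested on few mice, since leaving out mouse 187, 188 or 191 left none of the 3 past the threshold, and leaving out mouse 190, 193 or 194 left 1. Pdgfra fell in all 4 fractions. At the same step, the summed level of the 6 fibroblast genes had a median of 151.1 CPM at 3w and 64.5 CPM at 5m in input_TH, 159.2 and 69.7 CPM in SC_TH, 208.8 and 97.0 CPM in input_SYN and 273.5 and 135.7 CPM in SC_SYN. Of these genes 3 of 6 fell in SC_TH, 3 of 5 tested in input_SYN and 2 of 6 in SC_SYN, while in input_TH, with the library of mouse 191, none passed edgeR's test and the median of their fitted changes was 0.07. Their part in the fall of Pdgfra was not tested.

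Between 5m and 18m, none of the 8 genes passed edgeR's test in SC_SYN or input_SYN. In these fractions 0.0140% of 14240 and 0.139% of 12975 genes passed in either direction. At an unadjusted p under 0.05, 2474 of 14240 genes passed in SC_SYN, and 2 of the 8, Cspg4 and Olig1, both lower at 18m. In input_SYN 1214 of 12975 genes passed, and 1 of the 8, Olig2, which was higher. DESeq2 called 0 of the 8 in each. Cspg4 was at 110.5, 124.4, 124.9 and 164.7 CPM in SC_SYN at 5m and at 68.9, 79.6, 106.8 and 108.5 CPM at 18m. The groups did not overlap, and the change was -0.51 (95% interval -0.91 to -0.11, adjusted p = 0.235).

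Whether age acted differently in SYN and TH was tested as an interaction. In the input, the change of Olig1 between 5m and 18m was lower in SYN than in TH by 0.74 on the log2 scale (SE 0.20, adjusted p = 0.0419). Olig1 was at 75.3 ± 7.87 and 115 ± 11.9 CPM in input_TH, and at 143 ± 25.6 and 134 ± 29.3 CPM in input_SYN. It was 1 of 8 genes, where 1.41% of 17860 genes were lower by this test, and it passed in 10 of 22 alternatives. For the ribosome-bound RNA the corresponding difference of Olig1 was -0.75 (95% interval -1.22 to -0.28), with an adjusted p of 0.157. In that contrast edgeR passed none of the 8 and 0 of 16630 genes (0%), against 2 members and 2855 genes at an unadjusted p under 0.05, while DESeq2 passed 0 members and 255 genes. Between 3w and 5m, the interaction passed for none of the 8 genes in SC, where 0.0301% of genes passed, nor in the input, where 0.0224% passed. At an unadjusted p under 0.05, edgeR had 1 member there in SC, Myrf, and 1324 of 16630 genes. In the input it had 0 members and 1437 of 17860 genes, and DESeq2 called 0 members in both.

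Set against TH of the same age, SYN held more RNA of the genes for membrane proteins. TMM factors and library size place the zero of this comparison differently. Library size shifted the median of all genes by -0.55, -0.59 and -0.53 in SC at 3w, 5m and 18m, and by -0.58, -0.65 and -0.58 in the input. The changes of Pdgfra, Cspg4 and Lhfpl3 were above 0 and those of Sox10 below 0 under either scaling, while the sign for Olig1, Olig2, Myrf and Nkx2-2 turned in some contrasts.

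For Pdgfra, SC_SYN was at 168 ± 16.99, 110 ± 2.16 and 115 ± 7.85 CPM at 3w, 5m and 18m, and SC_TH at 61.8 ± 2.08, 47.9 ± 3.96 and 53.6 ± 6.28 CPM. SYN exceeded TH in each of the 12 mice, by 1.49 (SE 0.09, adjusted p = 7.68e-13), 1.26 (SE 0.09, adjusted p = 1.1e-11) and 1.16 (SE 0.09, adjusted p = 8.84e-11) on the log2 scale. In the input its difference was 1.12, 1.07 and 1.29. For Cspg4, SC_SYN was at 116 ± 37.4, 131 ± 23.3 and 90.9 ± 19.8 CPM, without overlap with the 39.6 ± 3.80, 40.8 ± 6.72 and 42.2 ± 4.63 CPM of SC_TH. The log2 differences were 1.59 (SE 0.18, adjusted p = 3.46e-08), 1.74 (SE 0.18, adjusted p = 4.61e-09) and 1.17 (SE 0.17, adjusted p = 3.01e-06), and 1.04, 1.43 and 1.13 in the input. Lhfpl3 was at 24.0 ± 1.91, 18.1 ± 2.99 and 20.8 ± 2.01 CPM in SC_SYN and at 12.1 ± 2.11, 10.4 ± 1.46 and 10.6 ± 0.223 CPM in SC_TH, again without overlap. It was higher by 1.04, 0.84 and 1.02 in SC (adjusted p at most 3.95e-06) and by 1.47, 1.35 and 1.39 in the input (adjusted p at most 2.66e-08).

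Sox10 went the other way. It was at 31.3 ± 8.32, 19.0 ± 2.02 and 22.5 ± 3.86 CPM in input_SYN and at 44.9 ± 4.68, 26.7 ± 1.85 and 40.0 ± 4.14 CPM in input_TH, and all 4 SYN values were under the TH values at each age. The differences were -0.34 (SE 0.14, adjusted p = 0.0285), -0.32 (SE 0.15, adjusted p = 0.0552) and -0.69 (SE 0.13, adjusted p = 3.06e-05). In SC they were -0.38 (SE 0.16, adjusted p = 0.0338), -0.56 (SE 0.15, adjusted p = 0.00183) and -0.93 (SE 0.15, adjusted p = 8.36e-06). At 3w the groups overlapped in SC, and the call was lost without mouse 188, 189 or 190, and in the input at 3w without mouse 188 or 189.

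Olig1 was higher in SC_SYN by 1.12, 1.25 and 0.50 (adjusted p = 3.94e-06, 6.49e-07 and 0.0127), and at 18m the sign of its difference turned with library size in SC (-0.03) and in the input (0.34 to -0.23). Myrf was higher by 0.97 at 3w (adjusted p = 3.58e-06) and 0.53 at 5m (adjusted p = 0.00255), where library size gave -0.06, and at 18m its difference was 0.18 (95% interval -0.11 to 0.46, adjusted p = 0.287). Olig2 was higher in input_SYN at each age, by 0.83, 0.85 and 0.78 (adjusted p at most 0.00019), but lost these calls with library size. In SC it passed at 3w with 0.31 (adjusted p = 0.0387), where library size gave -0.23, and not at 5m (0.08, adjusted p = 0.577) or 18m (-0.11, adjusted p = 0.464). Nkx2-2 passed in SC at 3w (0.59, adjusted p = 0.0467) but not with the mouse as a replicate block (adjusted p = 0.108), and it passed in no input contrast. Its mean in SC at 5m was 3.47 CPM in SYN and 3.45 CPM in TH with TMM, and 2.83 and 4.10 CPM with library size.

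In SC at 3w, 7 of the 8 genes were higher in SYN, where 31.1% of 16630 genes were higher, and 1 was lower, where 32.4% were. At 5m these counts were 5 (32.1%) and 1 (35.8%), and at 18m 4 (29.9%) and 1 (32.2%). In the input they were 6 (31.7%) and 1 (39.3%) at 3w, 6 (32.6%) and 0 at 5m, and 6 (32.9%) and 1 (39.4%) at 18m, with Sox10 the 1 lower gene throughout. At 5m, where no member was lower in the input by edgeR, Sox10 was lower at an unadjusted p under 0.05 and by DESeq2. Counted with library size, the calls over all genes went from 5173 higher and 5385 lower to 3078 and 9063 in SC at 3w, to 2991 and 9802 at 5m and 2456 and 9533 at 18m, and to 3518 and 10775, 3468 and 11103, and 3460 and 11085 in the input. Pdgfra, Cspg4 and Lhfpl3 stayed higher there in 17 of 18 calls, the exception being Lhfpl3 in SC at 5m (0.26, adjusted p = 0.0829).

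**Figure D3:**
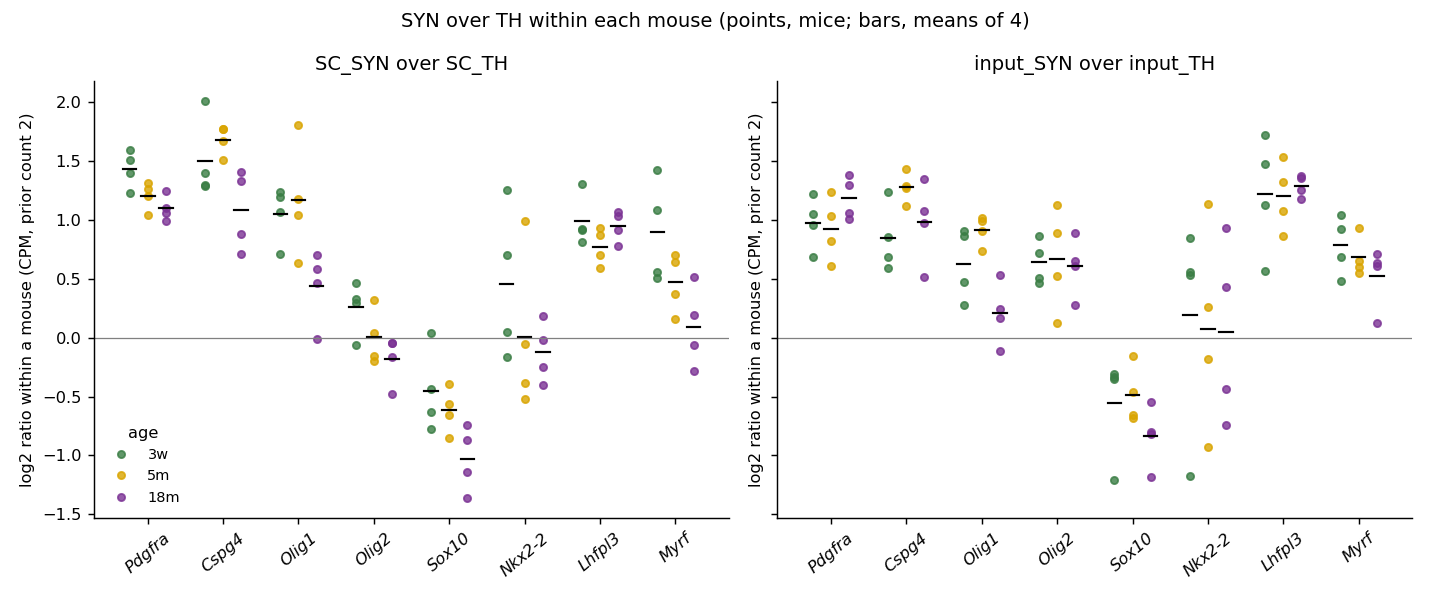
Log2 ratio of SYN over TH within each mouse (CPM with TMM factors, prior count 2) for the 8 genes, in SC and in the input, with points for mice in the color of their age and bars for the means of 4. Pdgfra, Cspg4 and Lhfpl3 lie above 0 in all 12 mice, and Sox10 lies below 0 in the input in all 12.

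Other cell types moved in the same contrast. In SC_SYN against SC_TH, 9 of 9 astrocyte genes were higher at each age (median 1.35 to 1.48), as were 9, 10 and 10 of 10 microglia genes (median 1.19 to 1.71) at 3w, 5m and 18m. Of 6 fibroblast genes, 5, 5 and 2 were higher. Endothelial genes were lower, 9 of 10 at each age (median -3.05 to -2.53), with Cldn5, a tight junction gene, at -3.72, -3.56 and -3.83. So were 5 of 5 erythrocyte genes (median -3.66 to -3.07), 5 to 6 of 6 nuclear RNAs (median -3.74 to -2.46), and 4, 3 and 3 of 5 pericyte genes tested, among them Rgs5 (-1.76, -1.68 and -0.68). Of 10 neuronal genes, 3 to 4 were higher and 5 to 6 lower. The summed neuronal level had a median of 17410, 17910 and 18570 CPM in SC_SYN at 3w, 5m and 18m. In SC_TH it was 9797, 10340 and 10420 CPM, without overlap between the compartments at any age. The summed level of the 6 pericyte genes was 35.2 to 69.0 CPM in SC_SYN and 71.1 to 103.5 CPM in SC_TH, and Higd1b was at 0 in all SC_SYN libraries at 3w. Their part in the differences of the 8 genes was not tested.

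Comparing the pellet with the input of the same compartment, all 8 genes were higher in SC_TH than in input_TH, averaged over the 3 ages, where 35.6% of 18416 genes were higher. At 3w alone, the mean log2 ratio within a mouse was -0.16 for Olig1, -0.05 for Myrf, -0.04 for Cspg4 and 0.003 for Sox10. Olig2 had the largest difference of the 8, 1.04 (SE 0.06, adjusted p = 3.56e-15), or 2.05-fold. In SC_TH it was at 31.8 ± 2.16, 22.0 ± 1.81 and 30.7 ± 0.500 CPM at 3w, 5m and 18m, and in input_TH at 17.4 ± 1.93, 10.9 ± 1.19 and 15.5 ± 2.37 CPM. The SC libraries lay above all input libraries of the same age. Nkx2-2 (0.64) and Sox10 (0.50) came next, and the others lay between 0.22 for Olig1 and 0.33 for Cspg4 (adjusted p at most 0.00469). In the same contrast 10 of 10 neuronal genes (median 0.59) and 8 of 9 astrocyte genes (median 0.58) were higher, and 10 of 10 endothelial genes (median -0.66) and 6 of 6 nuclear RNAs (median -1.22) lower. Their part was not tested.

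Within SYN, Cspg4 (0.58, adjusted p = 0.000377), Pdgfra (0.40, adjusted p = 2.44e-05), Olig1 (0.39, adjusted p = 0.00554), Sox10 (0.28, adjusted p = 0.0414) and Olig2 (0.28, adjusted p = 0.0415) were higher in SC_SYN than in input_SYN. These were 5 of 8, where 21.8% of 14301 genes were higher. Lhfpl3 was lower, by -0.24 (SE 0.09, adjusted p = 0.0414), where 21.5% were lower, and its value was under 0 in 10 of 12 mice. The calls of Sox10, Olig2 and Lhfpl3 were each lost in 8 or more of the 22 alternatives. Pdgfra was higher in SC in all 12 mice. With the mouse as a replicate block, Nkx2-2 passed as well (adjusted p = 0.0363).

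SC over input changed with age for 2 genes in TH. Between 3w and 5m it rose for Sox10 by 0.69 (SE 0.13, adjusted p = 0.0116) and for Olig1 by 0.55 (SE 0.15, adjusted p = 0.0432), which is 2 of 8, where 1.00% of genes rose. Sox10 was at 44.9 ± 4.68 CPM in input_TH and 45.1 ± 6.14 CPM in SC_TH at 3w, and at 26.7 ± 1.85 and 44.5 ± 2.85 CPM at 5m. At 3w the means of pellet and input differed by less than their SD. Neither gene passed with trends on GC content and length removed, with all 48 libraries in 1 fit, or without mouse 187 or 194. The summed nuclear RNAs of SC_TH, given above, had a lower median at 5m than at 3w, and their part was not tested. Between 5m and 18m none of the 8 passed by edgeR, where 1.78% of 18416 genes did in either direction. At an unadjusted p under 0.05 there were 2 members, Olig1 and Sox10, and 3137 of the 18416 genes. DESeq2 called 0 of the 8. In SYN, edgeR passed 0 of 14301 genes (0%) between 3w and 5m and 0 (0%) between 5m and 18m. There 473 and 393 genes had an unadjusted p under 0.05, none of them a member, and DESeq2 passed 0 in either.

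**Figure D4:**
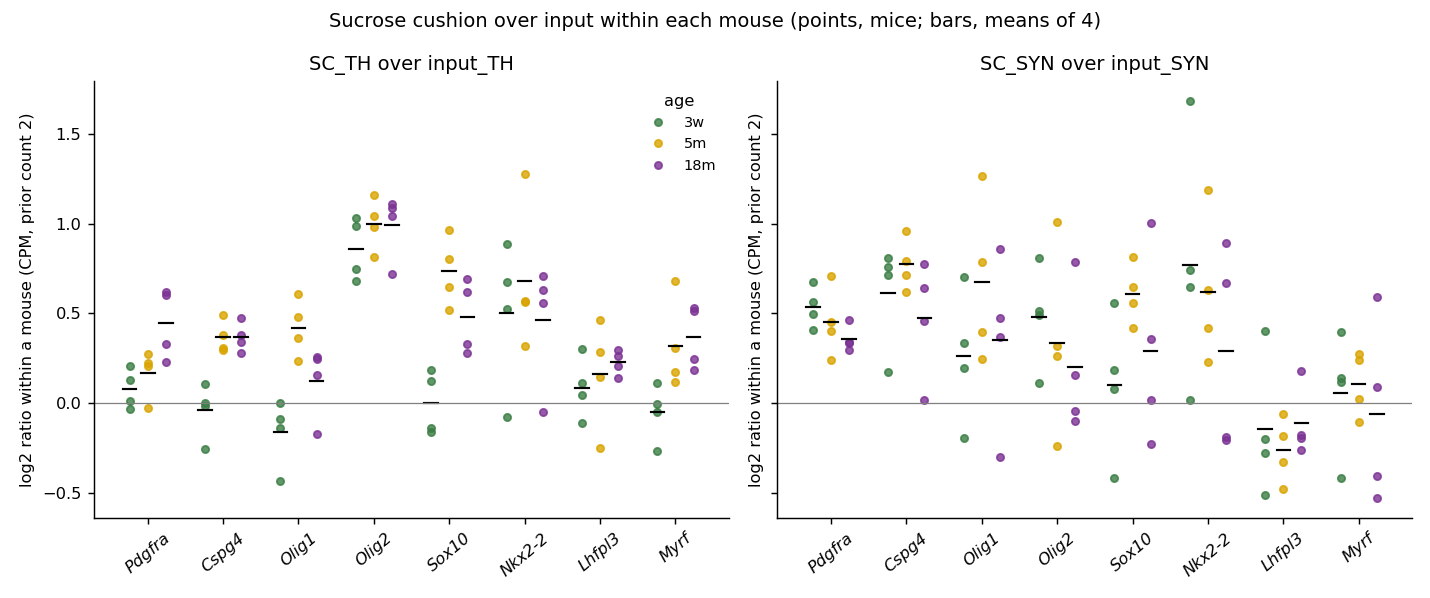
Log2 ratio of SC over input within each mouse (CPM with TMM factors, prior count 2) for the 8 genes, in TH and in SYN, with points for mice in the color of their age and bars for the means of 4. Olig2 in TH lies above 0 in all 12 mice, and Sox10 in TH lies higher at 5m than at 3w.

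Other genes of the lineage were grouped by stage. Of 10 further precursor genes, 6 fell in input_TH between 3w and 5m (median -0.40), among them Emid1 (-1.03), Neu4 (-0.86) and Vcan (-0.44), a matrix proteoglycan. Their median change was 0.08 from 5m to 18m. Of 9 tested genes of newly formed oligodendrocytes, 7 fell (median -0.63), among them Enpp6 (log2 -2.19) and Gpr17 (-1.69), a receptor made before myelination. Gpr17 was at 97.8 ± 8.20 CPM at 3w and at 30.6 ± 2.66 CPM at 5m. Of 14 genes of mature myelin, 12 fell (median -1.26), among them Mog (-1.62) and Cldn11 (-1.58). At 18m, 5 of these 14 had risen, among them Opalin (0.46), Mag (0.42), Mbp (0.34) and Cnp (0.23), of which Opalin and Cnp are named after their values were seen. Of the newly formed stage, Bcas1 had risen (0.39) and Gpr17 had fallen further (-0.35). In SC_TH, 9 of 9 genes of the newly formed stage (median -1.20) and 11 of 14 myelin genes (median -0.98) fell between 3w and 5m, as did 4 of the 10 precursor genes (median -0.21), and the myelin list had 1 gene that rose, Trf (0.78).

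The same 3 lists were also compared between SYN and TH. In SC, 8, 8 and 7 of the 10 precursor genes were higher at 3w, 5m and 18m, among them Tnr (1.49, 1.34 and 1.25), a matrix protein of perineuronal nets, and Megf11 (1.41, 1.68 and 1.07). Myelin genes were higher in 12, 11 and 8 of 14 (median 1.33, 0.82 and 0.43), with 2 lower at each age, and genes of the newly formed stage in 6, 5 and 4 of 9, with 1 lower at each age.

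**Figure D5:**
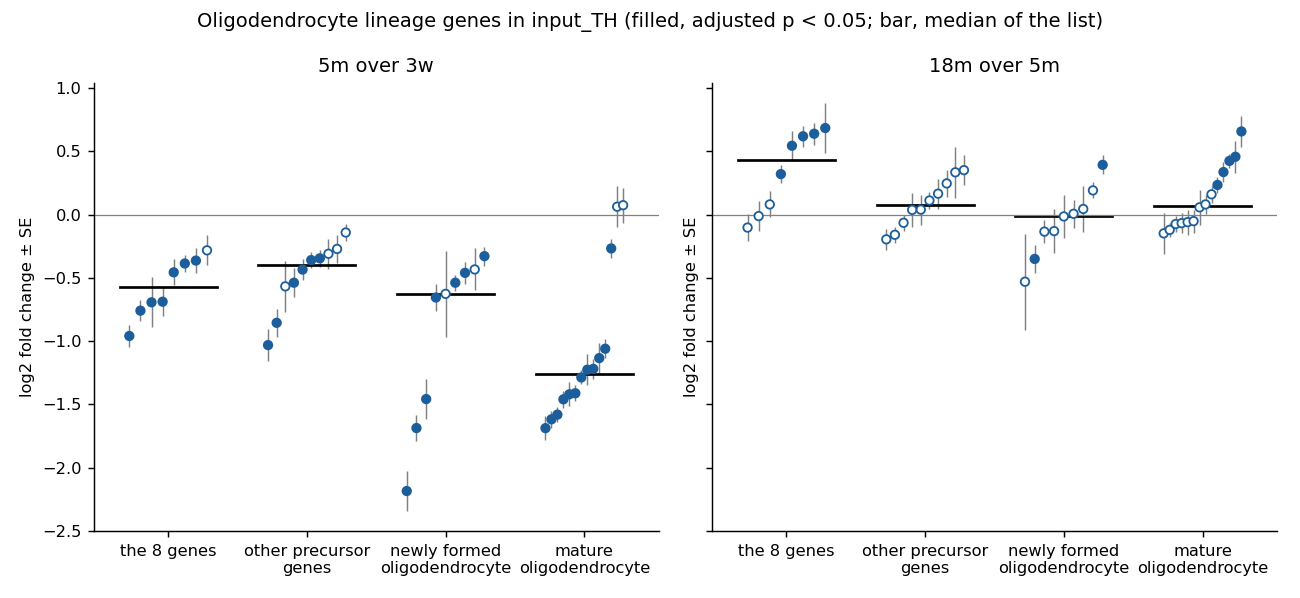
Log2 fold change in input_TH of the 8 genes and of the other lineage genes by list, between 3w and 5m and between 5m and 18m, with the SE as error bars, filled points for an adjusted p under 0.05 and bars for list medians. In the first contrast 12 of 14 myelin genes and 7 of the 8 lineage genes are filled below 0, and in the second 5 of each are filled above 0.

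Among 11 other factors that promote the lineage, 3 fell in input_TH between 3w and 5m, Sox8 (-0.46), Nkx6-2 (-0.43) and Chd7 (-0.30), and Nkx6-2 then rose (0.56). Among 8 factors that hold differentiation back, Sox4 (-0.84) and Id2 (-0.39) fell, and Sox11 fell between 5m and 18m (-0.40). The 6 other ligands and receptors of PDGF signalling tested in input_TH had a median change of -0.05 between 3w and 5m, and 1 of them, Pdgfa (0.27), rose between 5m and 18m. In SYN against TH, Pdgfa, the ligand of the precursors' receptor, was higher in the input at each age, by 1.10, 1.33 and 0.80. Of 10 genes of dividing cells, 6 had enough counts for a test, and Top2a (-2.04), Mki67 (-1.85) and Cenpf (-1.80) fell between 3w and 5m. Mki67 was at 3.34 ± 1.10 CPM at 3w and 0.948 ± 0.273 CPM at 5m.

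Levels over the 48 libraries describe which of the genes went together. These libraries are 4 per mouse, and the fractions they share weigh on each value. Pearson's r of log2 CPM was 0.886 for Pdgfra and Cspg4, 0.882 for Pdgfra and Lhfpl3 and 0.682 for Olig2 and Nkx2-2, while Sox10 was at -0.406 with Pdgfra and -0.567 with Lhfpl3. Of 10966 genes, the most alike to Pdgfra were Ephb1 (0.957), Slc39a12 (0.952) and Cdh11 (0.951). For Cspg4 they were Fads2 (0.974), Dchs1 (0.972) and Pcdhgc3 (0.963), and for Lhfpl3 Negr1 (0.953), Robo2 (0.952) and Kcnk2 (0.951). For Olig1 they included Chadl (0.900) and Bcan (0.899), and for Olig2 Tubb2a (0.848), Mrpl20 (0.839) and Erh (0.814). For Sox10 they were Tubb4a (0.903), Nacad (0.902) and Rtkn (0.898), and for Myrf Ttyh2 (0.931), Cacng3 (0.900) and Hs3st1 (0.897). For Nkx2-2, Olig2 came first, before Ahcy (0.652) and Gsto1 (0.635).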

How the data were processed

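Per the labels, libraries were made after rRNA removal with a directional kit and adaptors that carry UMIs. The authors used TopHat2 (2.1) and GRCm38 for alignment and featureCounts, ignoring strand, for the gene counts. Whether UMIs were used to remove duplicates is not given in the sources used here, nor is which library was in which of the sequencing runs. The authors deposited raw counts, without normalization, for 48526 genes in 48 libraries. Exonic length, GC content and positions came from GENCODE, which holds 48144 of the identifiers (the rest take 0.0596% of all reads counted). The raw counts were tested here with edgeR 4.0.16 (R 4.3.3; glmQLFit and glmQLFTest, TMM, filterByExpr, Benjamini-Hochberg, threshold 0.05), with age contrasts in each fraction and with SYN against TH, SC against input and their interactions with age over 24 libraries. Each fit scales its own libraries, so a fold can differ from the ratio of the printed CPM means. Those means rest on TMM factors over all 48 libraries. A prior count of 2 was added for log2 CPM, in the ratios within a mouse and the correlations, while the fits kept edgeR's default. In the age contrasts within a fraction, p-values measure the spread between mice. The fits over 24 libraries leave the mouse out, except with the replicate block, and take libraries of the same mouse as independent.

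Mice with the same number are the same animal, so libraries are paired by design. Deviations of a mouse from its group mean correlated between fractions with medians of -0.053 to 0.185 in the 6 pairs of fractions. Other settings were DESeq2 1.42.0, library size, RLE, other filters, loess trends (span 0.5) on GC content and length, all 48 libraries, a replicate block for the mouse, and each of the 12 mice left out. The code was tested on simulated data. From each further list (precursor, newly formed and myelin genes, regulators, PDGF, dividing cells and markers of other cell types), up to 3 genes are named, those with the largest change among genes with an adjusted p under 0.05, at least 20 mean counts in the higher group and no overlap between the mice, and genes outside this rule are said to be so. Some genes that the rule names are not reported here. Genes alike in level were ranked by Pearson's r over the 48 libraries among genes with a mean of at least 5 CPM. The 8 genes and the lists were chosen with earlier results of these data known.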

Additional observations from a re-analysis of the deposited data

Results flagged for a closer look

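In 96 groups of 4 mice, 1 mouse stood apart from the other 3 in 7 groups, measured by its gap to the nearest other mouse over the range of the group, against about 4.8 groups that chance gives at 1 in 20. Pdgfra in input_TH at 5m was 53.8 CPM in mouse 191 and 38.1 to 40.7 CPM in the others (gap 0.837), where the summed fibroblast genes were at 306.4 CPM against 47.3 to 64.8 CPM. Pdgfra in SC_TH at 3w was 64.9 CPM in mouse 187 against 60.3 to 61.0 CPM (0.84). Olig1 in SC_SYN at 5m was 342.1 CPM in mouse 191 against 185.7 to 207.6 CPM (0.86), where the summed fibroblast genes were at 252.0 CPM in that library and at 109.1 to 148.9 CPM in the other 3. Olig2 in input_TH at 18m was 19.0 CPM in mouse 198 against 14.1 to 14.7 CPM (0.872). Sox10 in input_SYN at 18m was 16.7 CPM in mouse 197 against 23.9 to 24.8 CPM (0.892). Lhfpl3 was 13.4 CPM in mouse 187 against 10.5 to 10.8 CPM in input_TH at 3w (0.904), and 22.5 CPM in mouse 193 against 16.3 to 16.9 CPM in SC_SYN at 5m (0.916).

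Effects that differed between groups by edgeR's interaction test were the rise of SC over input in TH between 3w and 5m for Olig1 (0.5495) and Sox10 (0.6905), and the lower change of Olig1 in input_SYN than in input_TH between 5m and 18m (-0.7409), all on the log2 scale.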

How the results depend on the processing

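The 78 calls of the 8 genes gave 1694 values under other settings, of which 1529 kept direction and side of the threshold, 159 lost the threshold and 6 changed sign. Of the 2448 values for the 114 differences that were not called, 46 passed in the same direction and 2 in the opposite. The cause was not tested. Pdgfra and Olig2 between 3w and 5m in both SC fractions, and Olig1 and Sox10 in input_TH at both steps, were called under every setting run. Signs turned with library size for Olig2 (-0.23 at 3w), Myrf (-0.059 at 5m) and Olig1 (-0.028 at 18m) in SC_SYN against SC_TH and for Olig1 in the input at 18m (-0.23), and with the GC and length trend removed for Olig2 in SC at 3w (-0.0044, and -0.00027 with the replicate block as well). With library size, Olig2 at 5m (adjusted p = 0.00117) and Myrf at 18m (adjusted p = 0.0341) passed in SC with the opposite sign.

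Between 3w and 5m the number called went from 3 to 6 (GC and length trend removed) and 5 (all 48 libraries) in SC_SYN, from 3 to 5 in input_SYN (no filter, GC and length trend removed, or only the ages compared), and from 7 to 4 in input_TH (all 48 libraries). After 5m it went from 0 to 1 in SC_SYN (all 48 libraries), from 1 to 3 (DESeq2, GC and length trend removed), 4 (no filter) and 0 (all 48 libraries) in SC_TH, and from 5 to 2 in input_TH (GC and length trend removed, or all 48 libraries). Input_SYN against input_TH at 18m went from 7 to 4 with library size. SC over input in TH between 3w and 5m went from 2 to 1 with library size and to 0 with the GC and length trend removed, with or without the replicate block, and with all 48 libraries. SYN against TH in the input between 5m and 18m went from 1 to 0 under these last 3 settings.

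With the mouse as a replicate block, calls in SC_SYN against SC_TH at 3w went from 8 to 7 and in SC_SYN against input_SYN from 6 to 7, both through Nkx2-2, and no other call of the 8 genes changed.

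With 1 mouse left out, the number called between 3w and 5m was 2 to 3 in SC_SYN, 2 to 4 in SC_TH and 0 to 3 in input_SYN (0 without mouse 187, 188 or 191, and 1 without 190, 193 or 194). In input_TH it was 5 to 7 and, after 5m, 4 to 5, and in SC_TH after 5m it was 1 to 2 (2 without 188, 189, 191, 194 or 196). It was 5 to 8 in SC_SYN against SC_TH at 3w (5 without 190), 3 to 6 in SC_SYN against input_SYN (3 without 189, 191, 194, 196 or 197), 0 to 2 for SC over input in TH between 3w and 5m (0 without 187 or 194, and 1 without 188, 193 or 197) and 0 to 1 for SYN against TH in the input between 5m and 18m (1 without 187, 189 or 198).

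Over all genes, calls between 3w and 5m went from 1146 to 1767 (DESeq2) and 3464 (all 48 libraries) in SC_SYN, from 418 to 650 (no filter), 895 (all 48) and 732 (only the ages compared) in input_SYN, and from 2136 to 761 (all 48) in input_TH, where library size turned 861 higher and 1275 lower into 1411 and 972. After 5m they went from 2 to 327 (DESeq2), 60 (no filter), 5 (GC and length) and 1457 (all 48) in SC_SYN, from 356 to 746 (no filter) and 228 (only the ages compared) in SC_TH, from 18 to 54 (DESeq2), 102 (no filter), 5 (GC and length) and 35 (all 48) in input_SYN, and from 2808 to 965 (GC and length) and 183 (all 48) in input_TH. Input_SYN against input_TH had 7689, 7871 and 7637 calls in place of 12679, 12990 and 12909 when at least 10 counts were asked of every library. For SC over input in TH, 429 calls between 3w and 5m became 1169 (DESeq2), 695 (RLE), 1303 (no filter), 792 (at least 10 counts), 749 (no mitochondrial genes), 103 (GC and length), 0 (all 48), 664 (replicate block) and 192 (block with GC and length), and 328 after 5m became 719 (DESeq2), 573 (no filter), 538 (at least 10 counts), 195 (GC and length) and 16 (all 48). For SYN against TH in the input between 5m and 18m, 432 calls became 1055 (DESeq2), 740 (at least 10 counts), 23 (GC and length), 77 (all 48), 661 (replicate block) and 25 (block with GC and length), and library size moved 180 higher and 252 lower to 423 and 200. In SC over the same step, 0 calls became 255 (DESeq2), 7 (library size), 23 (no filter) and 237 (all 48). Between 3w and 5m, 5 calls in SC became 2 (at least 10 counts) to 55 (DESeq2), and 4 in the input became 2 (all 48) to 36 (no filter).

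Depth limits Nkx2-2 most, at 2 to 78 counts a library, and input_SYN, with as few as 1780267 counts.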

Other observations

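In SC_TH, the pellet that also held nuclear RNAs, Zfp488, a co-regulator of OLIG2, fell at both steps, from 144 ± 24.6 CPM at 3w to 95.7 ± 7.67 CPM at 5m (log2 -0.61, edgeR adjusted p = 0.000593) and 68.7 ± 3.39 CPM at 18m (-0.48, adjusted p = 0.0185). In input_TH it did not pass at either step (-0.08, adjusted p = 0.361, and -0.03, adjusted p = 0.732). In SYN, its RNA was far lower than in TH in the input, by log2 differences of -3.05, -2.88 and -3.26 at 3w, 5m and 18m. The summed nuclear RNAs of SC_TH had medians of 12030, 9228 and 5570 CPM at these ages. The part of nuclear RNA in the fall of Zfp488 was not tested. Gpr17 was higher in SYN than in TH in the input at the 3 ages, by 1.69, 1.60 and 1.48. Aspa, an enzyme gene of mature oligodendrocytes, was lower in input_SYN than in input_TH, by -3.02 at 5m and -2.06 at 18m, on the log2 scale and with the edgeR threshold passed.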
